A study of Mus musculus with 4 samples.

Results

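The mouse genes for vomeronasal type 1 receptors, all protein-coding genes of the mm9 annotation whose symbol begins with Vmn1r, were placed against the lamina-associated domains (LADs) of primary hepatocytes. The rule found 203 genes of 22367 protein-coding genes, under 202 symbols, because Vmn1r63 names a pair of gene IDs. Chromosome 7 carried 103 of them, chromosome 6 carried 51, chromosome 13 carried 32 and chromosome 17 carried 13. Chromosome 4 held 2, and chromosomes 1 and 18 held 1 each. As annotated, the genes were short, with a median span of 930 bp, and 190 of them had 1 exon.

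LADs were measured by DamID, in which a fusion of lamin B1 with a bacterial methylase, Dam, marks GATC sites of the DNA near the nuclear envelope (NE), and Dam alone serves as the control. The 2 groups were WT mice and Tm7sf2-KO mice, which lack TM7SF2 (NET47), and all mice were 12 to 16 weeks old. TM7SF2 is a sterol reductase with a pool in the NE. By the study's account its main pool is in the endoplasmic reticulum for the majority of tested cell types. Hepatocytes of both genotypes were isolated, cultured and transduced for 24 h with a lentivirus for LaminB1-Dam or for Dam alone, so that part of the cultured cells carried a construct. This gave 4 libraries, 1 of each construct per genotype, and each was made from the pooled DNA of 4 mice. Without a replicate library the spread between animals is unknown, and differences between WT and KO are given without a test. The deposited lists give the positions of LADs and of differential regions (DRs) and no signal or depth. The study's results state that the KO was sequenced less deeply than WT. Neighbouring genes often share a LAD, so genes are not replicates either.

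Vomeronasal type 1 receptors are G protein-coupled receptors of sensory neurons in the apical layer of the vomeronasal organ, where they detect pheromones and other small molecules. A neuron usually expresses a single receptor gene of the family and keeps the rest silent. The signal passes through the G protein subunit encoded by Gnai2 to the channel encoded by Trpc2. The genes lie in clusters that grew by duplication, and hepatocytes have no known use for them. LADs are in general poor in active genes.

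A gene was called PI (periphery to interior) where 1 base or more of its span fell in a WT-only DR, and IP (interior to periphery) where the DR was KO-only. A DR is a stretch of at least 10 kb that lies in a LAD of one genotype and outside the LADs of the other. A gene overlapping both kinds is ambiguous (AMB), a gene in LADs of both genotypes without a DR is PP, and all remaining genes are II. An II gene can still lie in a LAD of a single genotype where the difference is shorter than a DR.

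The sequences that frame these calls are the GATC sites at which DRs begin and end. Of the 36 borders of DRs that held a Vmn1r gene, 35 fell at a GATC, and the other one lay beside unassembled bases. The 3 neighbouring DRs on chromosome 6, that over Vmn1r46 from WT and those over Vmn1r47 to Vmn1r49 from KO, are shown because receptor genes next to each other went opposite ways there. The windows are the plus strand of NCBIM37 (mm9), the border GATC is in capitals, and 20 bases stand on either side.
Start of the WT-only DR over Vmn1r46, chr6:89916393-89916436: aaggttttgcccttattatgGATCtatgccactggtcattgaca
End of the WT-only DR over Vmn1r46, chr6:89929192-89929235: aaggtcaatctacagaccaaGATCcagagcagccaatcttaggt
Start of the KO-only DR over Vmn1r47 and Vmn1r48, chr6:89963587-89963630: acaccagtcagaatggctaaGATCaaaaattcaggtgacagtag
End of the KO-only DR over Vmn1r47 and Vmn1r48, chr6:90003519-90003562: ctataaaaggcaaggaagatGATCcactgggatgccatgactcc
Start of the KO-only DR over Vmn1r49, chr6:90015305-90015348: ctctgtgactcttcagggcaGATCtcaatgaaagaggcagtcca
End of the KO-only DR over Vmn1r49, chr6:90045479-90045522: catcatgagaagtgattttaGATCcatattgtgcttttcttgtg

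The promoters show how alike neighbouring receptor genes can be, and that a window of 300 bases may hold few GATC sites or none. They are from RefSeq (GRCm38.p6) and carry GATC in capitals. They run 5′ to 3′ on the gene's strand, from 250 bases before to 50 after the annotated start. In both printed sequences the last 50 bases begin with atg, a start codon. The NCBIM37 models of these genes hold little beyond coding bases, 927 of 930 bp for Vmn1r46 and 930 of 933 bp for Vmn1r47. These windows, called promoters here, thus lie at the start of the coding sequence and need not hold the start of transcription. Vmn1r47 (plus strand) and Vmn1r48 (minus strand) had the same 300 bases with 0 differences, so their sequence is given once.
Vmn1r46, chr6:89975921-89976220, plus strand: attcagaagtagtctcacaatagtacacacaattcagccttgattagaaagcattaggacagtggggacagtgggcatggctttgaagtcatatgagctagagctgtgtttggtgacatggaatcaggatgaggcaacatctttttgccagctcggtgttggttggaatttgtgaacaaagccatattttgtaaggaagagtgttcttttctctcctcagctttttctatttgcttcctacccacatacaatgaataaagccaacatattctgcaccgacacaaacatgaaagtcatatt
Vmn1r47, chr6:90021638-90021937, plus strand: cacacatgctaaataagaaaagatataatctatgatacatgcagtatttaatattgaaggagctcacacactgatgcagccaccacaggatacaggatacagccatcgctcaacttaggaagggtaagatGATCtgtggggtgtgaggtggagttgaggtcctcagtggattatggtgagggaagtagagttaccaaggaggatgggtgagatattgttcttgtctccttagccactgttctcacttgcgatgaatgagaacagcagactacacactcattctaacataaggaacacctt
The first holds 0 GATC and the second holds 1. A promoter entry was matched by symbol for 177 of the Vmn1r genes, and 46.9% of these held GATC (a motif that reads the same on both strands), against 48% of all 32851 promoters of the table.

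Most Vmn1r genes lay in a LAD whether or not TM7SF2 was present. The class PP held 172 of the 203 genes (84.7%), where the background over all protein-coding genes was 17.9%. PI held 11 genes (5.42%, background 5.43%), IP held 9 (4.43%, background 17.1%), II held 11 (5.42%, background 56.6%) and AMB held 0 (background 2.96%). As shares of all genes, PI in the family therefore stood at the background and IP below it. A PI call needs a WT LAD, and an IP call needs bases outside one. A WT LAD touched 187 Vmn1r genes (92.1%) against 30.4% of all protein-coding genes. The PI and IP shares thus also depend on where the genes lay in WT, and neither is a rate among genes that could change. The classes use gene spans, and the Vmn1r genes are short, so annotated starts were counted too. In WT, 186 Vmn1r starts (91.6%) lay in a LAD, and in KO 184 (90.6%). Among all protein-coding genes the shares of starts were 22.7% in WT and 32.8% in KO.

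Whole spans of 183 Vmn1r genes were inside a WT LAD and of 182 inside a KO LAD. For 171 genes the span was whole in LADs of both genotypes. A further 11 were whole in a WT LAD and touched no KO LAD, and 9 were whole in a KO LAD and touched no WT LAD. No LAD of either genotype touched 7 genes. The Vmn1r pseudogenes, named in the same way and left out of the family above, were placed much like the genes: 43 of 54 (79.6%) were PP, 3 were PI, 3 were IP and 5 were II.

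The other chemosensory families were also mostly PP. Vmn2r genes, the type 2 receptors of the basal vomeronasal layer, were PP for 106 of 125 (84.8%) and PI for 19 (15.2%), with 0 IP and 0 II. Olfr genes, the odorant receptors of the main olfactory epithelium, were PP for 920 of 1113 (82.7%), PI for 107 (9.61%) and IP for 13 (1.17%). The Vmn1r family thus had the lowest PI share and the highest IP share of the 3, and with a single library pair per genotype this order is a description. Of the 9 Vmn1r genes called IP, 5 lay in a single cluster of chromosome 6, from Vmn1r40 to Vmn1r54, and outside it 4 of 188 were IP. The order of the families also depends on span, because a longer gene is more easily called by 1 base. The 125 Vmn2r genes spanned 3125.6 kb and the 203 Vmn1r genes 552.0 kb. Of starts, 100% of Vmn2r, 91.6% of Vmn1r and 93.6% of Olfr lay in a WT LAD. In KO LADs these shares were 93.6%, 90.6% and 84.5%.

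**Figure D1:**
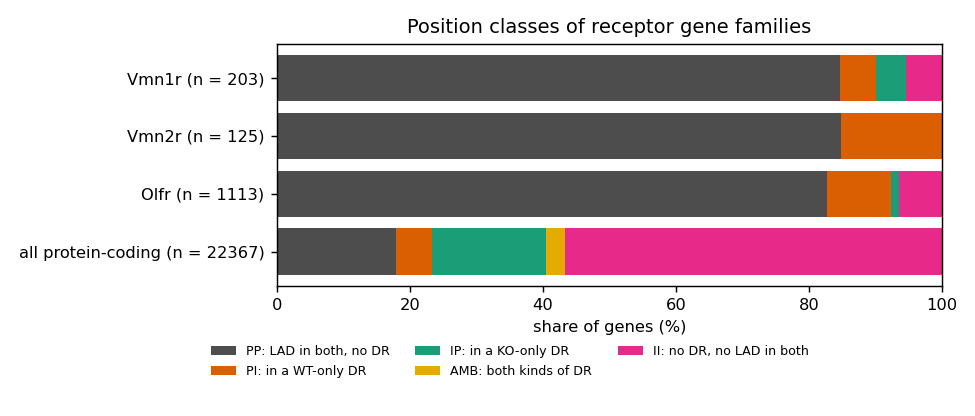
Share of genes (%) in each position class for Vmn1r, Vmn2r, Olfr and all protein-coding genes, with the number of genes beside each bar. PP takes 84.7% of Vmn1r genes against 17.9% of all genes, and IP takes 4.43% against 17.1%.

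The surroundings of the genes were read at fixed distances from their annotated starts. At 100 kb upstream the share of Vmn1r genes in a LAD was 88.2% for WT and 85.7% for KO. At 500 kb upstream the shares were 70.9% and 73.4%, and at 500 kb downstream 70% and 68.5%. All protein-coding genes showed the opposite shape in WT, with 22.7% at the start against 38.3% at 500 kb upstream. The share for the family was thus higher at the genes than far from them, and it stayed above that of all genes at both ends of the window.

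**Figure D2:**
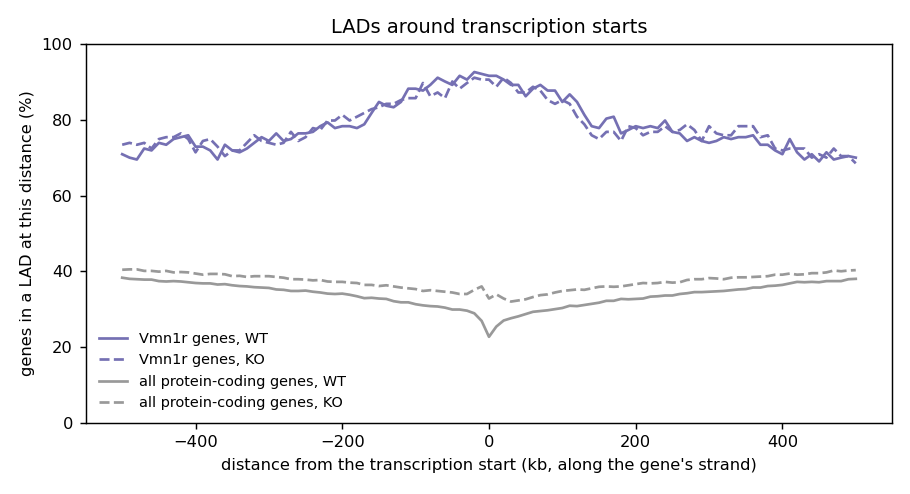
Share of genes (%) in a LAD against the distance from the annotated transcription start (kb along the gene's strand). Lines are for Vmn1r genes and all protein-coding genes, with WT as solid and KO as dashed lines. The Vmn1r lines peak near the start, at 91.6% in WT and 90.6% in KO there, while the line for all genes in WT has its lowest point at the start (22.7%).

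With neighbours joined at up to 1 Mb, 200 Vmn1r genes fell into 10 clusters that span 12.7 Mb together. Vmn1r1 (chromosome 1), Vmn1r90 (chromosome 7) and Vmn1r238 (chromosome 18) stood alone. LADs took 91.4% of the cluster bases in WT and 89% in KO, and 86.3% lay in LADs of both. The cluster from Vmn1r32 to Vmn1r39 on chromosome 6 (8 genes, chr6:66502177-66755326) was covered in full in each genotype by a single LAD. The cluster from Vmn1r188 to Vmn1r223 on chromosome 13 (32 genes, chr13:22179747-23342192) was covered by 99.3% in WT and 97% in KO. Its flanks of 1 Mb on each side were covered by 19.8% and 33.2%, so the LADs there ended close to the receptor genes: 33.3 kb before the first and 32.3 kb after the last in WT, and 33.8 kb and 23.8 kb in KO.

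The large cluster from Vmn1r91 to Vmn1r183 on chromosome 7 (64 genes, chr7:20686507-24840710) was similar, with 94.3% of its bases in WT LADs and 91.2% in KO LADs against 11.2% and 13.7% in its flanks. Of its 64 genes, 57 were PP. Clusters from Vmn1r4 to Vmn1r31 on chromosome 6 (28 genes, 27 of them PP), from Vmn1r55 to Vmn1r65 (12 genes, 10 PP) and from Vmn1r66 to Vmn1r89 (24 genes, 23 PP) on chromosome 7, and from Vmn1r224 to Vmn1r237 on chromosome 17 (13 genes, 13 PP) were covered by 91.1% to 98% in WT and by 87.2% to 96.8% in KO. In contrast to those on chromosome 13, the last of these clusters lay in a wide LAD landscape, with 85.6% of its flanks in WT LADs and 80.8% in KO LADs.

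**Figure D3:**
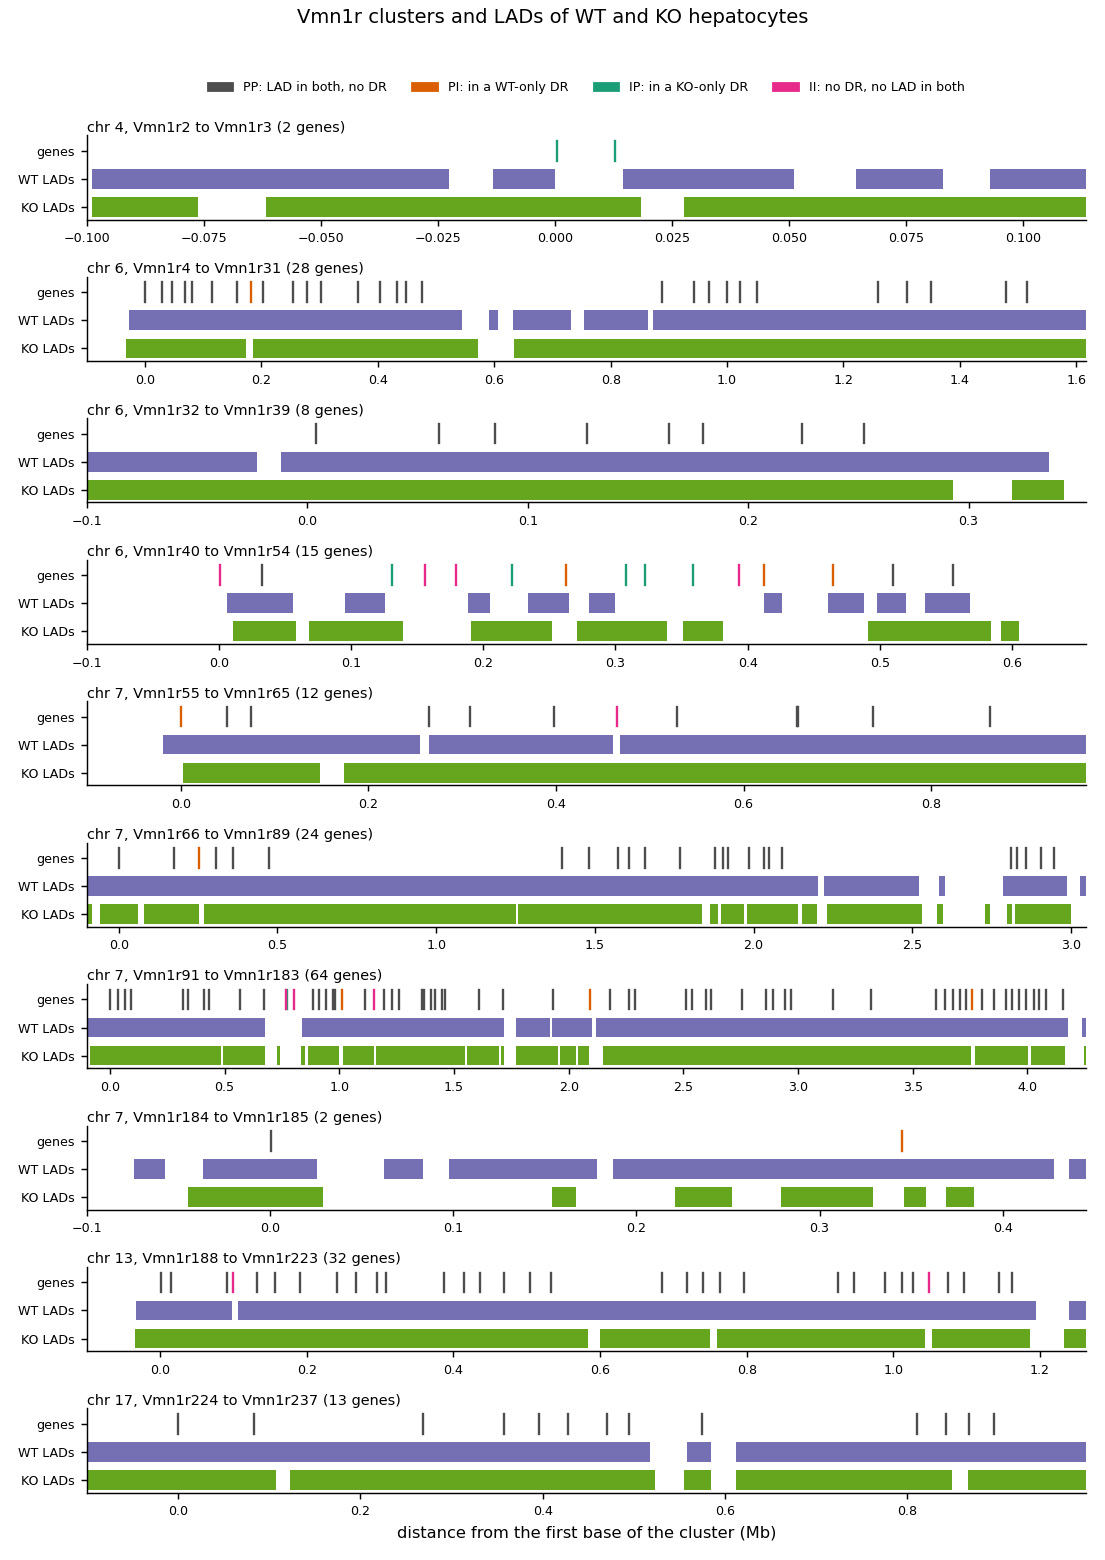
Maps of the 10 Vmn1r clusters, each with 100 kb on either side, against the distance from the first base of the cluster (Mb). Genes are ticks at their midpoint coloured by class (that of Vmn1r112 lies under that of Vmn1r110), and filled bars are WT LADs and KO LADs. Long LADs cover most clusters in both genotypes, whereas the cluster from Vmn1r40 to Vmn1r54 is broken into 9 WT LADs and 6 KO LADs.

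In KO the LADs that held these genes were more numerous and shorter. LADs with at least 1 Vmn1r gene numbered 27 in WT, with a median of 240.7 kb and a maximum of 3024.0 kb, and 48 in KO, with a median of 148.6 kb and a maximum of 1605.5 kb. A WT LAD held up to 30 Vmn1r genes and a KO LAD up to 19. LADs of at least 1 Mb held 86 Vmn1r genes in WT and 30 in KO. The start of a PP gene was a median of 178.7 kb from the nearest LAD border in WT and 91.5 kb in KO, and 7 against 13 of the 172 starts were within 10 kb of a border. The splitting was uneven: the cluster from Vmn1r66 to Vmn1r89 met 4 WT LADs and 13 KO LADs and the one from Vmn1r91 to Vmn1r183 met 5 and 15, while the one from Vmn1r4 to Vmn1r31 met 5 and 3. Over all 10 clusters the numbers were 37 and 54, and over the genome 8107 and 16076. The part of the lower KO depth in these numbers was not tested.

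PP genes near a break show how narrow some of the differences were. Vmn1r236 on chromosome 17 lay 739 bp from a WT-only DR, Vmn1r235 beside it 4920 bp, and Vmn1r132 and Vmn1r183 on chromosome 7 lay 7051 and 8123 bp from one. Vmn1r53 on chromosome 6 was 9727 bp from a KO-only DR. All 5 had their whole span in LADs of both genotypes. The shortest members, Vmn1r87 and Vmn1r115 (888 bp each), were PP and lay over 50 kb from any DR. Vmn1r58 was the one PP gene in a LAD with part of its span, 45.5% in WT against the whole in KO. Of its coding bases, 2.26% lay in the WT LAD and 100% in the KO LAD.

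The 11 PI genes were Vmn1r11, Vmn1r46, Vmn1r51, Vmn1r52, Vmn1r55, Vmn1r68, Vmn1r90, Vmn1r118, Vmn1r137, Vmn1r172 and Vmn1r185. Each had a WT-only DR of its own, which held exactly 1 Vmn1r gene and 0 other protein-coding genes. Most WT-only DRs in the clusters held no Vmn1r gene: there were 28, and 10 of them held one. The DRs over PI genes were 11.2 to 28.3 kb long and covered 9 of the 11 genes whole, Vmn1r51 by 52.3% and Vmn1r90 by 8.74% of the span. In 6 cases (Vmn1r11, Vmn1r68, Vmn1r90, Vmn1r118, Vmn1r172 and Vmn1r185) the gap lay inside the WT LAD, in 3 (Vmn1r46, Vmn1r55 and Vmn1r137) it was at its edge, and for Vmn1r51 and Vmn1r52 it was the whole LAD. A median of 3415 bp separated the PI genes from the nearest KO LAD, and in 2 (Vmn1r51 and Vmn1r52) the distance was above 10 kb.

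Vmn1r68 (chr7:11112559-11113518) sat in the WT in a LAD of 2714.4 kb, and the KO left it in a gap of 16.4 kb whose edge was 741 bp from the gene. Vmn1r11 (chr6:57087347-57088246) had a WT LAD of 571.1 kb and lay in a KO gap of 11.2 kb, which held 12 GATC sites, the fewest of these DRs. Vmn1r55 (chr7:5097820-5099103), the first gene of its cluster, lay at the edge of a WT LAD of 274.0 kb and 991 bp outside the KO LAD. Vmn1r172 (chr7:24443335-24445682) and Vmn1r185 (chr7:27396040-27397183) lay 3415 and 810 bp from a KO LAD. Around Vmn1r185 the change was broader than the gene: between it and Vmn1r184, which was PP, 82.8% of the bases were in WT LADs and 35.8% in KO LADs.

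Vmn1r90 was PI by a small part of its span. The model covers 92413 bp with 12 exons (chr7:15116003-15208415), of which 8.74% lay in the DR and 81.6% remained in KO LADs, and its coding bases were all in LADs of both genotypes. Vmn1r51, with a span of 8348 bp, was in a WT LAD for 52.3% of its span and for all of its coding bases, and touched no LAD in KO.

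The 9 IP genes were Vmn1r2, Vmn1r3, Vmn1r42, Vmn1r45, Vmn1r47, Vmn1r48, Vmn1r49, Vmn1r112 and Vmn1r238, in 7 KO-only DRs of 11.9 to 39.9 kb that held 0 other protein-coding genes. In 5 of the 9 the gene belonged to the cluster from Vmn1r40 to Vmn1r54. Of 11 KO-only DRs in the clusters, 6 held a Vmn1r gene. Vmn1r2 and Vmn1r3 (chr4:3099177-3112505) shared a DR of 14.4 kb, which filled a space between WT LADs inside a KO LAD of 80.1 kb. Vmn1r2 was in a WT LAD for 6.43% of its span and Vmn1r3 for 0%, and both were whole in the KO LAD. Vmn1r238, on chromosome 18 at 3122455 to 3123465, was placed alike: it lay 2094 bp outside a WT LAD and in a KO-only DR of 14.6 kb within a KO LAD of 46.8 kb.

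These 3 genes near the assembled start of their chromosomes are also near copies of each other. The coding sequence of Vmn1r2 was 99% identical to that of Vmn1r3 and 98.5% to that of Vmn1r238, and Vmn1r3 and Vmn1r238 shared 98.8%. Of the 50-base words in their spans, 22.3%, 15.9% and 25.4% occurred once in the genome. Vmn1r79 on chromosome 7, the closest member to Vmn1r238 at 98.9%, was PP. The read length and the handling of reads that match several places are not given in the sources used here, and the part of shared reads in the IP call of these genes was not tested.

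Vmn1r112 was IP by 5.92% of a span of 200677 bp (chr7:21356583-21557259), the longest model of the family. This span contains Vmn1r109, which was PP, and Vmn1r110 and Vmn1r111, which were II. Its coding bases all lay in LADs of both genotypes, so the call came from the space between its 2 exons. The DR there, 11.9 kb long, abuts unassembled bases, and 0% of its 50-base words occurred once.

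The cluster from Vmn1r40 to Vmn1r54 on chromosome 6 (chr6:89664197-90220047) was the exception among the clusters with 5 or more genes. Of its 15 genes, 3 were PP, 3 PI, 5 IP and 4 II. LADs covered 41.8% of its bases in WT and 61.9% in KO: 31% lay in LADs of both, 10.8% in WT LADs alone, 31% in KO LADs alone and 27.2% in neither. It stood in LAD-poor surroundings, with 0.627% of its flanks in WT LADs and 8.47% in KO LADs. Outside this cluster 169 of 188 Vmn1r genes (89.9%) were PP, and the other clusters were covered by 93.7% in WT and 90.2% in KO.

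Along this cluster the state changed from gene to gene. Vmn1r40 began it outside the LADs, 5431 bp from one in WT and 9503 bp in KO, and Vmn1r41 after it was PP, with LADs of 49.3 kb (WT) and 47.7 kb (KO). Vmn1r42 was in a KO LAD of 71.4 kb, and the WT LAD ended 4628 bp short of it. Vmn1r43 and Vmn1r44 were in no LAD. Vmn1r45 lay in a KO LAD of 61.7 kb that bridged WT LADs of 16.7 kb and 31.1 kb.

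The second of those WT LADs held Vmn1r46, and the KO LAD ended before that gene, which was left 7722 bp from the nearest KO LAD. The next genes went the opposite way. Vmn1r47 and Vmn1r48 were in a KO LAD of 68.7 kb, and in WT they lay 8272 and 22317 bp beyond a LAD of 19.6 kb. Vmn1r49 had a KO LAD of 30.2 kb to itself, and the nearest WT LAD was 53602 bp away, the farthest of the IP genes. These are the 3 DRs whose borders are printed above.

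Vmn1r50 was again in no LAD, 18413 bp from one in WT and 11767 bp in KO. Vmn1r51 and Vmn1r52 each had a short WT LAD, of 13.5 kb and 27.5 kb, that was missing whole from the KO, which left them 27135 and 25939 bp from a KO LAD. Vmn1r53 and Vmn1r54 closed the cluster as PP, in separate WT LADs of 22.4 kb and 34.3 kb and in 1 KO LAD of 92.6 kb.

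**Figure D4:**
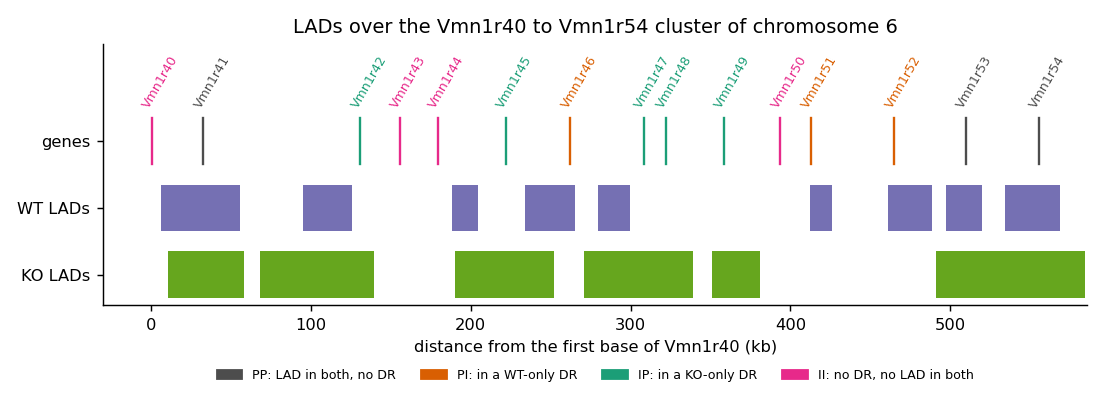
The cluster from Vmn1r40 to Vmn1r54 against the distance from the first base of Vmn1r40 (kb), with genes coloured by class above WT LADs and KO LADs. The PI gene Vmn1r46 stands between the IP genes Vmn1r45 and Vmn1r47, and 4 genes lie in a LAD of neither genotype.

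Related genes of this cluster differed in class as well as sharing it. Its 105 gene pairs had a median coding identity of 69.7% (64.5% to 95.2%). Vmn1r46 (PI) was 86.5% identical to Vmn1r49 (IP) and 72% to its neighbour Vmn1r47 (IP), and Vmn1r51 (PI) was 84.5% identical to Vmn1r42 (IP). Vmn1r47 and Vmn1r48, the closest pair at 95.2%, shared an IP call and a DR. Their own 50-base words were unique for 46.9% and 24%, and those of the DR over both for 48.9%. Around Vmn1r46 and Vmn1r49, 95.9% and 85.4% of the words of the DR occurred once, so these calls lie mostly in sequence without copies of that length.

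The 11 II genes were of 2 kinds. Vmn1r120 and Vmn1r218 lay whole in a WT LAD, 1940 and 2964 bp from a KO LAD, and Vmn1r61 and Vmn1r192 lay whole in a KO LAD, 3515 and 978 bp from a WT LAD. In these 4 the gap was shorter than a DR. The other 7, Vmn1r1, Vmn1r40, Vmn1r43, Vmn1r44, Vmn1r50, Vmn1r110 and Vmn1r111, were in no LAD. Vmn1r1, the lone gene of chromosome 1 (chr1:184087275-184088450), lay 39389 bp from a WT LAD and 41267 bp from a KO LAD. It was also among the most distant members in sequence, with 66% coding identity to its closest relative, and 99.8% of its 50-base words occurred once.

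Sequence copies limit what can be read from part of the family. A median of 80.3% of the 50-base words of a Vmn1r gene occurred once in the genome, but the share was under 50% for 69 of the 203 genes: 57 PP, 3 PI, 6 IP and 3 II. The cluster from Vmn1r91 to Vmn1r183 stood apart with 16.7% over all its bases, against 51.4% to 80.9% in the others. The 212.2 kb of this cluster that lay in no LAD were 47.1% unassembled bases, and 0.193% of the remaining words were unique. Vmn1r110 and Vmn1r111 lie in that stretch, with 0% unique words. In 4 other clusters (from Vmn1r4, Vmn1r40, Vmn1r66 and Vmn1r224) the bases outside LADs were more often unique, at 88.3% to 97.1%, than those inside, at 65% to 80.4%. The cluster of Vmn1r184 and Vmn1r185 had the opposite order, with 62.4% outside and 79.8% inside.

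**Figure D5:**
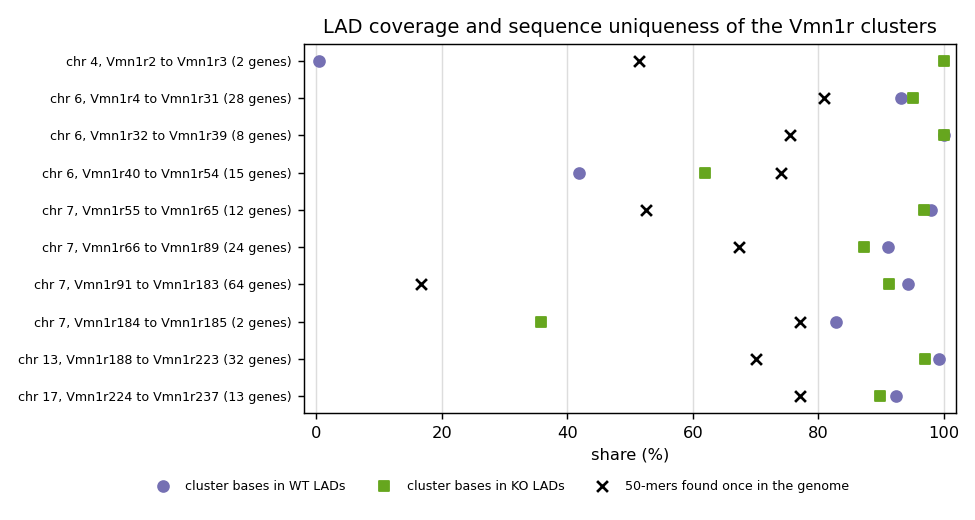
For each Vmn1r cluster, the share (%) of its bases in WT LADs (circles) and KO LADs (squares) and of its 50-base words found once in the genome (crosses). WT and KO lie within a few percent of each other for most clusters with over 5 genes, the cluster from Vmn1r40 to Vmn1r54 is at 41.8% and 61.9%, and the one from Vmn1r91 to Vmn1r183 has 16.7% of its words unique.

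Near copies in that chromosome 7 cluster received different calls. Vmn1r118 was PI and Vmn1r111 II, although their coding sequences were 99.6% identical and their promoters the same. Vmn1r137 was PI, and its coding sequence was identical to that of Vmn1r130, which was PP. In the WT-only DRs over Vmn1r118 and Vmn1r137, 5.17% and 0% of the 50-base words were unique. Of the 177 promoters, 29 were shared letter for letter with another Vmn1r gene. Reads that fall wholly in stretches shared by such copies cannot be told apart by sequence. Read length and the handling of such reads are not given, so a difference in position between near copies cannot be read as one between the genes. Among the 134 genes with at least 50% unique words, 85.8% were PP.

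WT-only DRs with a Vmn1r gene held 12 to 91 GATC sites (median 44), and KO-only DRs held 20 to 99 (median 51). The words of the WT-only DRs were unique for a median of 87.6% (0% to 98.7%) and those of the KO-only DRs for a median of 57.8% (0% to 88.2%), so the sites of some DRs lie in sequence that has copies elsewhere.

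A list of genes that act in vomeronasal neurons gave 23 genes, 4 of them PP, 1 PI, 5 IP, 3 AMB and 10 II, where the background was 17.9% PP, 5.43% PI, 17.1% IP, 2.96% AMB and 56.6% II. The 4 PP genes were the formyl peptide receptor genes Fpr-rs3, Fpr-rs4, Fpr-rs6 and Fpr-rs7 on chromosome 17, a further small family of vomeronasal receptors. Gnai2 lay 414.0 kb from a WT LAD and 353.8 kb from a KO LAD, and Trpc2 393.6 kb and 234.5 kb. Ano1 and Ano2, which encode chloride channels, touched LADs: Ano1 was IP by 8.85% of its span, and Ano2 was AMB, covered by LADs for 86.8% in WT and 68% in KO. Gnao1, the G protein subunit of Vmn2r neurons, was IP by 48.7% of its span, and Plcb2, a phospholipase, by 84.4%. Robo2, an axon guidance receptor, was PI by 3.78% of its span and stayed in KO LADs by 96.2%. Of 5 hepatocyte genes found, Alb, Apoa1, Apob and Ttr lay in no LAD of either genotype and were II, as were 56.6% of all protein-coding genes. Cps1 was PI, and LADs took 11.8% of its span in WT against 1.01% in KO.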

How the data were processed

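Genomic DNA of WT and Tm7sf2-KO hepatocytes, LaminB1-Dam and Dam alone, was sequenced from 4 pooled libraries. The authors deposited 2 LAD lists and 2 DR lists, which hold positions and no signal, ratio, score or count. According to the study's methods, they mapped reads to mm9, took the log2 ratio of the constructs per fragment and segmented it with DNAcopy. The submitters' processing notes name BWA. The depth behind an interval is unknown, so no interval of confidence is given.

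Lists were compared with NCBIM37 (the same assembly) and its GENCODE annotation over 21 chromosomes. The DRs were remade from the LAD lists with a minimum of 10 kb, and the borders matched in 7787 of 7787 WT-only DRs and in 8208 of 8208 KO-only DRs. Clusters joined genes up to 1 Mb apart. Words of 50 bases, a length chosen here, were counted over both strands of the genome. Coding identity is from edit distance over the longer sequence. Interval and word steps were tested on simulated data. Tools were Python 3.11.15, numpy 2.4.6, numba 0.67.0, pysam 0.24.0, edlib 1.3.9.post1 and matplotlib 3.10.9.

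Named genes were all PI, IP, II and unclustered members, first and last members of clusters with at least 5, the longest and shortest, and 5 PP members nearest a DR. Other Vmn1r genes were named for their likeness to these, for lying inside one of them, or as the single PP gene partly in a LAD, after their values were seen. Members and lists were chosen with earlier results of these data known. The vomeronasal list also held Lhx2, Meis2, Calr4, Ano1, Ano2, Gng8, Kirrel2, Kirrel3, Omp, Bcl11b, Nrp2, Rtp1, Rtp2, Ldb1 and Tfap2e, of which Tfap2e was not matched, and the hepatocyte list Tf, not matched. Samples were grouped by their titles, and no test was made.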

Additional observations from a re-analysis of the deposited data

How the results depend on the processing

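Of 117 values recomputed under other settings, 100 stayed within a factor of 1.5 and 17 did not. They were recomputed for the Vmn1r genes alone, so no share over all protein-coding genes stands beside them under the same setting. A changed count therefore cannot be read as particular to the family. The 11 PI genes became 35 with a window of 100 kb centred on each gene, 3 with DRs of at least 20 kb, 4 with LADs joined across gaps of up to 50 kb and 4 without chromosome 7. The 9 IP genes became 4 with DRs of at least 20 kb and 5 with joined LADs. Joining closes narrow gaps by construction. PP fell from 172 to 81 genes without chromosome 7, which leaves 100 of the 203 members, so all counts under that setting are out of fewer genes. IP stayed within the factor as a count, at 8, but these were 8 of 100 genes against 9 of 203. The 11 II genes became 0 with the window, 7 with differences of any length, 22 with DRs of at least 20 kb, 7 with joined LADs and 7 without chromosome 7. AMB went from 0 to 8 with the window and to 1 with differences of any length. Settings chosen after seeing the data left out the cluster from Vmn1r40 to Vmn1r54 (4 IP and 7 II), the models Vmn1r90 and Vmn1r112, or genes with under 50% unique words (3 IP). No paired analysis was possible because each genotype has 1 pooled library of each construct and the lists carry no replicate, and for the same reason no replicate could be left out. The lists show neither signal strength nor depth, so a narrow DR cannot be set against measurement error.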
